A study of Mus musculus with 6 samples.

Results

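Both mature arms of the miR-342 precursor were followed in T cell blasts and in small extracellular vesicles (small EVs) collected from the culture medium of the blasts. The members were the rows mmu-miR-342-3p and mmu-miR-342-5p of the deposited table, 2 of 451 miRNAs, and they were chosen by the CPM of mmu-miR-342-3p, which is high in small EVs relative to cells. The contrast of small EVs with cells had thus already been used to choose them, and their values are given as a description, with no test.

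Small RNA of 6 libraries was sequenced, 3 of T cell blasts and 3 of small EVs, with the replicate numbers 1, 2 and 5 in each group. Both groups came from wild-type C57BL/6 mice aged 8 to 12 weeks, whose total splenocytes were stimulated with concanavalin A at 2 μg/ml, a lectin that activates T cells, for 36 h and then grown with IL-2 at 50 U/ml. The cells were pelleted, and small EVs were collected from day 6 medium by serial centrifugation that ended at 100000 g. The labels describe no sort for T cells, although a legend of the study names CD4+ T cells, so the blasts can hold other cells of the spleen, and fewer cells of a type cannot be told apart from less RNA per cell.

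A miRNA precursor is a hairpin that Dicer cuts into a duplex of 2 short strands, the 5p and the 3p arm. One strand is usually kept in an Argonaute protein, where bases 2 to 8, the seed, pair with target mRNAs, and the other is usually degraded faster. The miR-342 hairpin is made from an intron of Evl, a gene for an actin regulator of the Ena/VASP family, and its 3p arm is known as a miRNA of lymphoid cells that is also induced by retinoic acid in human acute promyelocytic leukemia cells. Small EVs carry miRNAs out of the cell, and their content is known to differ from that of the cell that sheds them.

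The hairpin and both arms are shown because each result below compares these strands. In the hairpin the capitals mark the 5p arm, which comes first, and the 3p arm, and in the mature strands they mark the seed. The sequences are those of RefSeq on GRCm38.p6.
Mir342 hairpin: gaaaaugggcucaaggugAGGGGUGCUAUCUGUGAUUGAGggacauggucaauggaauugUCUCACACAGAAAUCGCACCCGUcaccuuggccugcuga
mmu-miR-342-5p: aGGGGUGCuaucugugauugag
mmu-miR-342-3p: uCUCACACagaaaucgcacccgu

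The hairpin lies at chr12:108658620-108658718 on the plus strand, the 5p arm at chr12:108658638-108658659 and the 3p arm at chr12:108658680-108658702. It sits inside Evl (chr12:108554720-108688516, plus strand, GENCODE on GRCm38), within an intron of 20189 bases, 5520 bases from the start of that intron. Of the 7 annotated Evl transcripts 5 span the hairpin, it is in intron 3 of 4 of them and in intron 4 of the other, and 0 have an exon that overlaps it. Each arm has a single locus in the RefSeq table, and no other mature miRNA of the 1679 in that table has the seed of either arm. The nearest other mature sequence of that table is 9 edits away from the 3p arm and 7 edits away from the 5p arm. The reads were aligned to miRBase, and miRNAs of the deposited table without a RefSeq match were not compared. The 3p arm has 23 bases and a GC content of 52.2%, and the 5p arm has 22 bases and 50.0%, beside a median of 49.0% over the 370 miRNAs of the table that matched RefSeq. Neither arm holds GGAG, a motif known to be bound by hnRNPA2B1 in the loading of miRNAs into T cell exosomes. It was read on the mature strand alone and occurs in 29 (7.84%) of the 370.

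Values are TMM-normalized CPM (read counts per 1000000), in which the authors scaled read counts to library size and to a trimmed mean of all miRNAs. In T cell blasts 1, 2 and 5, mmu-miR-342-3p had 2375, 2027 and 2642 CPM. In small EVs 1, 2 and 5 it had 19219, 24616 and 17892 CPM. Each small EV library was thus far above each library of cells, and the groups did not overlap, as was so for 20.4% of all 451 miRNAs in this direction. In cells the mean was 2348 ± 308 CPM (SD, n = 3), against 20575 ± 3561 CPM (SD, n = 3) in small EVs, a ratio of 8.76. The difference was 3.13 on the scale of log2(CPM + 1), with a standard error of 0.17 in the limma fit.

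The other strand of the same hairpin showed no such gap. In T cell blasts 1, 2 and 5, mmu-miR-342-5p had 210, 297 and 311 CPM, and in small EVs 1, 2 and 5 it had 256, 247 and 302 CPM. All 3 small EV values lay inside the range of the cells. In cells the mean was 273 ± 54.9 CPM (SD, n = 3), against 268 ± 29.7 CPM (SD, n = 3) in small EVs, a ratio of 0.984. Its log2 difference was -0.01 with a standard error of 0.21, and the 95% interval from the spread of these libraries ran from -0.56 to 0.55, so a ratio anywhere from 0.677 to 1.46 was not resolved.

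**Figure D1:**
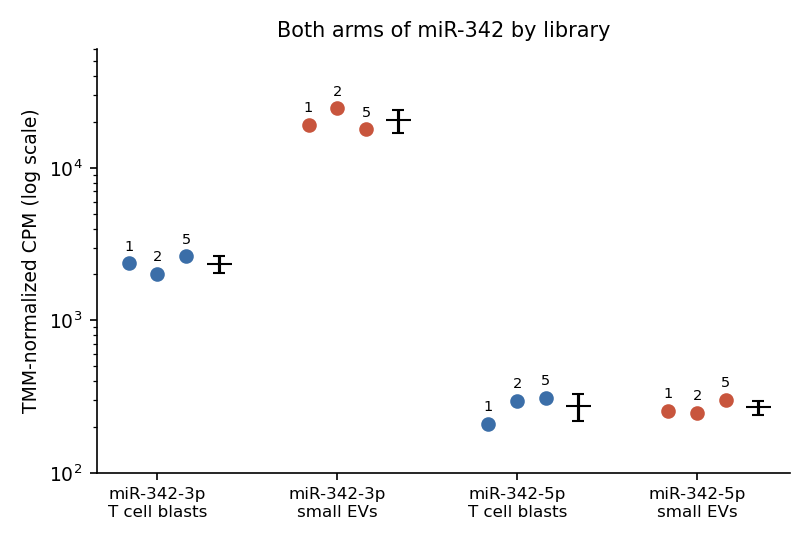
TMM-normalized CPM (log axis) of both arms in each library, with the replicate number above each point and the mean ± SD of 3 libraries as a black bar. The 3p arm sits between 2027 and 2642 CPM in T cell blasts and between 17892 and 24616 CPM in small EVs, while the 5p arm stays between 210 and 311 CPM in all 6 libraries.

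The libraries held 236432 to 279737 reads in cells and 261393 to 463498 in small EVs over the listed miRNAs, and 3 reads were worth 11.0 to 14.4 and 6.28 to 10.4 CPM. Both arms were well above these floors. The 3p arm rested on 634, 553 and 552 reads in T cell blasts 1, 2 and 5 and on 9175, 11271 and 5153 in small EVs 1, 2 and 5. The 5p arm rested on 56, 81 and 65 reads in cells and on 122, 113 and 87 in small EVs, so its counting error is larger. As a share of all reads, the 3p arm took 0.220% ± 0.0197 (SD, n = 3) in cells and 2.18% ± 0.360 (SD, n = 3) in small EVs. The 5p arm took 0.0256% ± 0.00463 and 0.0286% ± 0.00410. These shares do not use the TMM factors, and they show the same contrast between the arms.

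Within a replicate number the ratio of small EVs to cells for mmu-miR-342-3p was 8.09 for number 1, 12.1 for number 2 and 6.77 for number 5. For mmu-miR-342-5p it was 1.22, 0.831 and 0.971. The 3p ratio was highest in number 2, where the 5p ratio was lowest. Over all 9 pairs of a small EV library with a library of cells, the ratio ran from 6.77 to 12.1 for the 3p arm and from 0.793 to 1.44 for the 5p arm.

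The order of levels places mmu-miR-342-3p among the middle of the abundant miRNAs in cells and near the top in small EVs. By mean CPM it was number 37 of 451 in T cell blasts and number 12 in small EVs. By library it was number 35, 38 and 37 in T cell blasts 1, 2 and 5, and 12, 10 and 12 in small EVs 1, 2 and 5. Its neighbours in cells were mmu-miR-103-3p (2573 CPM) and mmu-miR-423-3p (2295 CPM), both also from introns of protein-coding genes. In small EVs they were mmu-let-7i-5p (21512 CPM) and mmu-miR-26a-5p (16724 CPM), of the let-7 and miR-26 families. The ranges of all 4 neighbours overlapped that of mmu-miR-342-3p, so its place among them was not resolved.

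The rank of mmu-miR-342-5p hardly moved, from 100 in cells to 106 in small EVs by mean CPM. Its neighbours were mmu-miR-28a-3p (305 CPM) and mmu-miR-1198-5p (263 CPM) in cells, and mmu-miR-96-5p (288 CPM) and mmu-miR-147-3p (265 CPM) in small EVs. Again their ranges overlapped that of mmu-miR-342-5p.

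The arm ratio, the number of 3p reads per 5p read, does not depend on how a library is scaled. In T cell blasts 1, 2 and 5 it was 11.3, 6.83 and 8.49. In small EVs 1, 2 and 5 it was 75.2, 99.7 and 59.2. The 3p arm was the more abundant strand in each library, and the lowest ratio in small EVs was several times the highest in cells. On the log2 scale the mean was 3.12 ± 0.37 (SD, n = 3) in cells and 6.25 ± 0.38 (SD, n = 3) in small EVs, a difference of 3.13, or 8.78-fold.

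Seen from the 5p arm, the minor strand made up 8.12%, 12.8% and 10.5% of the reads of both arms in T cell blasts 1, 2 and 5. Their Wilson 95% intervals ran from 6.30 to 10.4%, from 10.4 to 15.6% and from 8.35 to 13.2%. In small EVs 1, 2 and 5 it made up 1.31%, 0.993% and 1.66%, with intervals from 1.10 to 1.56%, from 0.826 to 1.19% and from 1.35 to 2.04%. The intervals cover counting error only, and those of small EVs stay far below those of cells. Since the 3p level that chose the miRNA is part of this ratio, it is not an independent measure of the contrast.

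**Figure D2:**
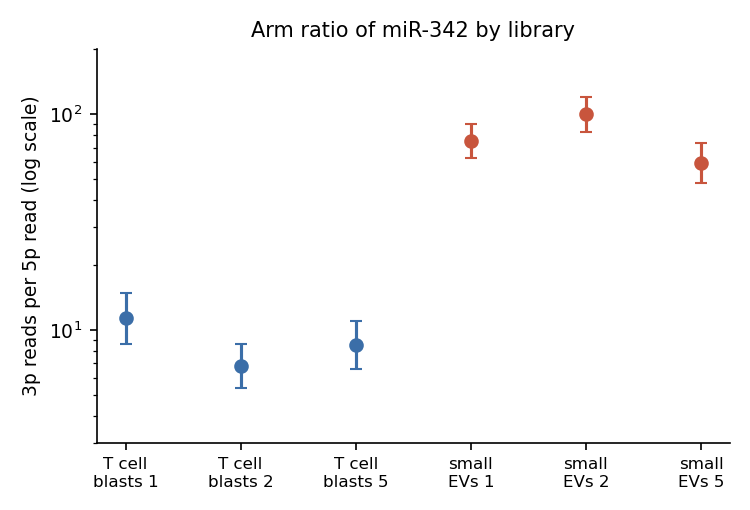
Number of miR-342-3p reads per miR-342-5p read in each library (log axis), with bars for the 95% interval of counting (Wilson). T cell blasts lie between 6.83 and 11.3 and small EVs between 59.2 and 99.7.

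Other precursors give this shift a scale. Both arms were listed under the same name for 116 precursors, and 56 of these had a mean of at least 10 CPM for both arms in both groups. For 55 of them each library had reads of both arms, and mmu-miR-191 was left without a value. Over these 55, the median absolute change of log2(3p/5p) from cells to small EVs was 0.67, and 16 changed by at least 1 in either direction. The ratio moved toward the 3p arm in small EVs for 33 and toward the 5p arm for 22. The change of miR-342 was the largest of the 55, but miR-342 was picked on the level of its 3p arm and the other precursors were not.

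The precursors mmu-miR-210, mmu-miR-25 and mmu-miR-212 were picked after their values were seen. The next largest change was that of mmu-miR-210, a miRNA induced by hypoxia, at 2.79. There the 3p arm had 3746 CPM in cells and 4269 in small EVs, and the 5p arm had 736 and 130 CPM. In mmu-miR-25, from an intron of Mcm7, the change was 2.43, with 8786 and 13813 CPM for the 3p arm and 56.4 and 14.2 CPM for the 5p arm. In both of these the minor arm had the lower mean in small EVs, and mmu-miR-25-3p was also called higher (adjusted p = 0.0253, limma). In miR-342 the minor arm had nearly equal means and the major arm differed. In mmu-miR-212, with a change of 2.54, both arms had higher means in small EVs. Its 3p arm had 16.4 CPM in cells and 288 in small EVs, and its 5p arm had 15.9 and 57.2 CPM. These levels in cells rested on 13 and 12 reads. Of the precursors with an arm on the lymphoid list described further on, 3 had a value, and they differed: -0.12 for mmu-miR-142a, -0.47 for mmu-miR-150 and 1.32 for mmu-miR-29a, whose minor 5p arm went from 21.5 CPM to 11.7 CPM.

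**Figure D3:**
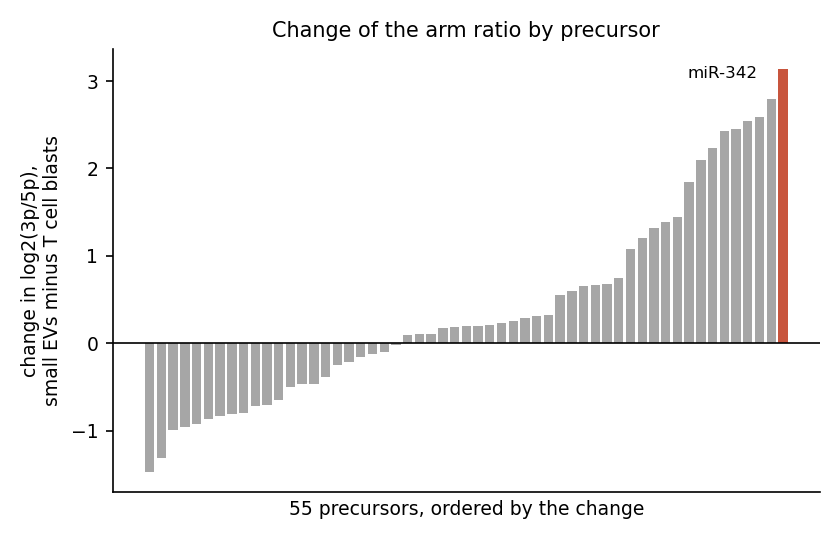
Change in log2(3p/5p) from T cell blasts to small EVs for 55 precursors with at least 10 CPM for both arms in both groups, ordered by the change, with miR-342 in red. Bars run from -1.47 to 3.13, and the bar of miR-342 is the highest.

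Among all miRNAs, mmu-miR-342-3p combined a large difference with a high level. Its log2 difference was number 22 of 451, and most of those above it were rare in cells. Of the 139 that reached 100 CPM in cells it was the largest, followed by mmu-miR-10a-5p, from the Hoxb genes, at 3.05. Among the 61 with at least 1000 CPM it was again the largest, followed by mmu-miR-146a-5p, an NF-κB induced miRNA, at 1.71. These limits on level were set with the values known. Over all 451 miRNAs the median difference was 0.02, close to that of mmu-miR-342-5p.

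**Figure D4:**
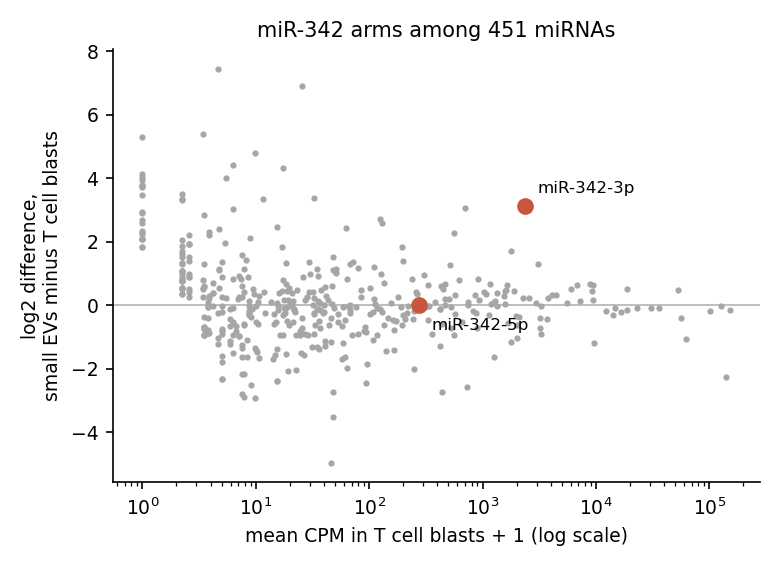
Log2 difference between small EVs and T cell blasts on the scale of log2(CPM + 1) against the mean CPM in T cell blasts plus 1 (log axis), 1 point for each of 451 miRNAs, with both miR-342 arms in red. miR-342-3p lies at 3.13, above all others that reach 100 CPM in cells, and miR-342-5p lies at -0.01.

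A ratio of 2 miRNAs of the same library is also free of scaling. As a percentage of mmu-miR-92a-3p, the most abundant miRNA of both groups, mmu-miR-342-3p stood at 1.43, 1.31 and 1.90% in T cell blasts 1, 2 and 5 and at 13.3, 18.6 and 12.8% in small EVs 1, 2 and 5. Relative to mmu-miR-142a-3p, a miRNA of blood cells that fell in small EVs (log2 difference -1.19, adjusted p = 0.00141, limma), it went from 24.2% ± 2.62 (SD, n = 3) to 483% ± 52.2 (SD, n = 3). It was thus the rarer of this pair in each library of cells and the more abundant in each library of small EVs. Relative to mmu-miR-155-5p, a miRNA of activated lymphocytes that itself rose in small EVs (1.29, adjusted p = 0.0063, limma), it went from 79.8% ± 20.8 to 286% ± 72.6.

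Relative to mmu-miR-150-5p, a miRNA of resting lymphocytes that falls on activation, mmu-miR-342-3p stood at 11.8, 11.6 and 56.8% in T cell blasts 1, 2 and 5. In small EVs 1, 2 and 5 it stood at 132, 209 and 369%. Number 5 was the highest in both groups, and mmu-miR-150-5p itself varied widely between libraries, with 14085 ± 8274 CPM in cells, against 10397 ± 5003 CPM in small EVs (SD, n = 3 each). Against each of these 4 miRNAs all small EV libraries were above all libraries of cells. As with the arm ratio, the 3p level that chose the miRNA is part of each ratio, so these are not independent measures.

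**Figure D5:**
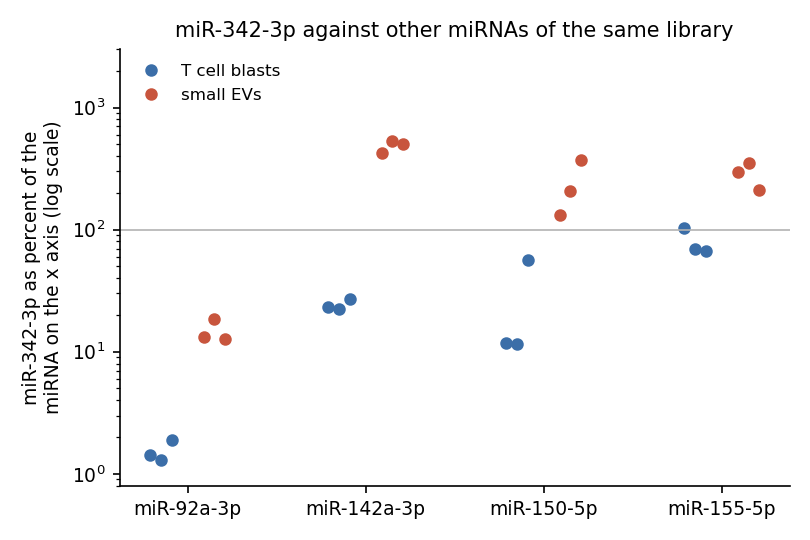
miR-342-3p as a percentage of each of 4 other miRNAs in the same library (log axis), with 3 points for T cell blasts and 3 for small EVs, and a line at 100%. The points of small EVs lie above those of cells for each denominator, from 1.31 to 1.90% against 12.8 to 18.6% for miR-92a-3p.

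The miRNAs whose profile was most like that of mmu-miR-342-3p were found by the distance between log2(CPM + 1) values of the 6 libraries, each centred on its own mean, over 272 other miRNAs that reached 10 CPM in cells. The nearest were mmu-miR-703 (distance 0.49), mmu-miR-486a-5p (0.72), mmu-miR-486b-5p (0.83), mmu-miR-10a-5p (0.85) and mmu-miR-146b-5p (1.37). All of these were far rarer than mmu-miR-342-3p. In cells mmu-miR-703 had 10.6 ± 0.901 CPM, from few reads, against 117 ± 18.8 CPM in small EVs. The red cell miRNA mmu-miR-486a-5p had 125 ± 14.1 and 823 ± 169 CPM, and it shares its sequence nearly whole with mmu-miR-486b-5p, so the split of reads between them is uncertain. The Hoxb miRNA mmu-miR-10a-5p had 702 ± 201 and 5815 ± 1527 CPM, and mmu-miR-146b-5p, of the miR-146 family, had 558 ± 321 and 2448 ± 241 CPM (SD, n = 3 for each). The 6 libraries are shared by all miRNAs, and with such a difference between groups the distance mostly measures its size.

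For mmu-miR-342-5p the nearest profiles were flat ones, those of mmu-miR-92b-3p (distance 0.32), mmu-miR-125a-5p (0.33), mmu-miR-421-3p (0.38), mmu-miR-27b-3p (0.43) and mmu-miR-183-5p (0.43). None of these was called different between the groups by limma. The arms of miR-342 had no miRNA in common among their 5 nearest, which follows from their unlike differences between the groups and is no separate result.

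Other miRNAs of lymphocytes were read from a list of 12 without miR-342, all measured, and calls were made with limma at an adjusted p under 0.2 (Benjamini-Hochberg over 451), the threshold of the study's methods. Of these, 6 were higher in small EVs, 3 were lower and 3 did not pass. Over all miRNAs 21.1% were higher and 12.4% were lower. The largest difference was that of mmu-miR-146a-5p, at 1.71 with an adjusted p of 0.000425 in limma, less than that of mmu-miR-342-3p, and both arms of the blood cell precursor mmu-miR-142a were lower (-1.19 and -1.07). The median of the list was 0.07, beside 0.02 over all miRNAs. Without small EVs 2 only 3 were higher, and mmu-miR-150-5p, which did not pass, was called lower with the replicate block (adjusted p = 0.182, limma).

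Since miR-342 lies in an intron, a list of 88 mature miRNAs known to be encoded within protein-coding genes was also read, of which 84 were measured. On this list 23 (27.4%) were higher in small EVs, 10 were lower and 51 did not pass. Over all 451 miRNAs 21.1% were higher and 12.4% were lower, so the list was not far from that share. Without the arms of miR-342 the counts were 22, 10 and 50 of 82. Both arms of mmu-miR-126a and of mmu-miR-486a, among the members that rose, also stand on the endothelial and red cell marker lists. A RefSeq locus was found for 75 of the 84, and 71 of these lie within a protein-coding gene of GENCODE on their own strand, of which 16 were higher and 10 lower. The 9 without a matched locus were left unplaced, and 6 of them were higher, so the share among the placed members does not stand for the whole list. For some of the 9 the other arm of the same hairpin was placed, as mmu-miR-126a-3p was in Egfl7. Of the members that rose, mmu-miR-335-5p, mmu-miR-204-5p and mmu-miR-486a-3p had no read in cells, and the authors' filter fixed their direction. Among abundant members, mmu-miR-186-5p rose from 9300 ± 277 to 12527 ± 322 CPM (SD, n = 3 each, adjusted p = 0.0352, limma). From the precursor in an intron of Lpp, mmu-miR-28a-3p rose from 305 to 591 CPM (0.96, adjusted p = 0.0113, limma), while its 5p arm fell from 329 to 235 CPM (-0.48, adjusted p = 0.0972, limma). The latter call was lost without T cell blasts 2, without small EVs 1, with libraries rescaled to equal sums and in DESeq2 (adjusted p from 0.0452 to 0.296 over 16 alternatives). From the precursor of mmu-miR-423-3p, the neighbour of mmu-miR-342-3p in cells, the 5p arm fell from 1777 to 784 CPM (-1.18, adjusted p = 0.00937, limma) while the 3p arm did not pass.

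Markers of some other cell types were higher in small EVs too. All 6 measured red cell miRNAs were higher, with a summed level of 246 to 258 CPM in cells against 1219 to 1863 CPM in small EVs. Of these, 4 had no reads in cells, among them mmu-miR-451a, the defining miRNA of red cells, with 22 reads in small EVs. The sums came almost wholly from the 5p arm of miR-486b (128 CPM in cells, 781 CPM in small EVs) and that of miR-486a (125 and 823 CPM). Since these arms share nearly all of their sequence, they are not independent measures. All 11 measured miRNAs of the stromal and endothelial list were higher, from 232 to 306 CPM summed in cells to 3222 to 5759 CPM in small EVs. Of these, 6 had no reads in cells, and 8 had at most 3 reads in all cells together. The filter of the authors fixed the direction of members without reads in cells. Members with at most 3 reads there also needed small EV libraries to pass it. The counts of both lists are thus a description, and they cannot be weighed against the 21.1% higher over all 451 miRNAs.

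The myeloid miRNA mmu-miR-223-3p had 1 read in cells and 22 reads in small EVs, or 15.3 to 20.9 CPM in small EVs, and the other arm was not among the listed miRNAs. Of 7 measured epithelial miRNAs 1 (14.3%) was higher, not above the 21.1% over all 451, so this count shows nothing particular to the list. The epithelial sums were 367 to 378 CPM in cells against 441 to 489 CPM in small EVs. Neither arm of the liver miRNA miR-122 was listed. The sums of these lists do not measure how much mmu-miR-342-3p such cells bring, and the part of such cells in its difference was not tested.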

How the data were processed

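Reads were trimmed by the authors with Cutadapt, reads under 20 bp or without an adaptor were discarded, and the rest were aligned to mature mouse miRNAs of miRBase 21 (bowtie or BWA in the methods, BWA in the submitters' processing notes) and quantified with RSEM 1.17, with no genome build involved. Ligation in library preparation favours some miRNAs, which affects a comparison of arms but less that of groups. The deposited signal is CPM normalized with TMM factors of edgeR, for miRNAs with at least 1 CPM in at least 3 libraries. Whole reads were recovered from 100% of the values (tolerance 0.05 read).

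Differences are small EVs minus T cell blasts, fitted over all 451 miRNAs with limma 3.58.1 (R 4.3.3) on log2(CPM + 1), with a trend and no block. Adjusted p under 0.2 (Benjamini-Hochberg) was called. It called 95 higher and 56 lower, and 81 and 78 when libraries were rescaled to miRNAs under 5% of the total. On recovered reads edgeR 4.0.16 called 82 and 61 and DESeq2 1.42.0 called 64 and 41. Replicates are independent experiments. The deviations of same-numbered libraries from the group means correlated over 284 miRNAs (r = 0.15, 0.16 and 0.34 for numbers 1, 2 and 5). Because each exceeded 0.1, the numbers were tried as a block in an alternative fit, which called 106 higher and 73 lower. The calls and p-values given are without this block unless it is named. The limit of 0.1 comes from the data, and pairs of unlike numbers exceeded it too. T cell blasts 2 with small EVs 1 gave 0.17 and T cell blasts 1 with small EVs 2 gave 0.11. Only number 5 thus stood apart from the unlike pairs. The share of mmu-miR-5099 in the summed CPM was 12.4 to 14.2% in cells and 1.88 to 4.16% in small EVs, which can move the scaling.

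Named miRNAs are both arms, the 5 nearest profiles, neighbours in rank, 4 denominators, precursors whose arm ratio changed as much as that of miR-342 (there were 0 others), and up to 4 examples of each list. Further miRNAs were chosen after their values were seen. They are mmu-miR-210, mmu-miR-25, mmu-miR-212 and mmu-miR-29a among precursors, the list members without reads in cells or on 2 lists, and those near Mir342. The members and lists were chosen with earlier results of these data known.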

Additional observations from a re-analysis of the deposited data

How the results depend on the processing

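The log2 difference of mmu-miR-342-3p kept its direction under 15 alternatives, between 2.95 (libraries rescaled to miRNAs under 5%) and 3.30 (rescaled to a sum of 1000000), and without one library it was 2.99 to 3.22. That of mmu-miR-342-5p stayed near 0, from -0.19 to 0.17, and its sign changed with the scaling. The difference in log2 arm ratio was 2.94 to 3.32 without one library and 3.13 to 3.21 otherwise. With the replicate number as a block these differences were 3.13, -0.01 and 3.13, and the block moved no count by over 1.5 times. The 95 miRNAs higher in small EVs became 61 at a mean of at least 10 CPM, where fewer are tested, and at an adjusted p under 0.05 there were 58 higher and 29 lower. Without one library there were 77 to 103 higher and 46 to 67 lower. At 0.05 the higher members were 15 on the intronic and 3 on the lymphoid list, and without one library they were 18 to 26 and 3 to 6. With 3 libraries a group, and 56 to 122 reads of the 5p arm in each, small differences of that arm cannot be resolved.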

Other observations

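Measured miRNAs near Mir342 on the same chromosome were read by position, a choice made after the values were seen. The nearest was Mir345, 178309 bases further along on the same strand. Its 3p arm rose from 50.3 ± 18.8 CPM (SD, n = 3) in T cell blasts to 105 ± 4.12 CPM (SD, n = 3) in small EVs (log2 difference 1.12, standard error 0.34, adjusted p = 0.0539, limma), a call that held under all 16 alternatives run for it. Its 5p arm had 17.8 ± 6.36 and 25.3 ± 10.5 CPM (0.44, standard error 0.51, adjusted p = 0.648, limma), from 13 reads in all cells together. The imprinted Dlk1-Dio3 miRNAs begin 934208 bases from Mir342 with mmu-miR-127-3p, which had 8.95 ± 8.14 CPM in cells, from 7 reads, and 229 ± 55.1 CPM in small EVs. These neighbours were thus much rarer than mmu-miR-342-3p in both groups.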
